A study of Homo sapiens with 12 samples.

Results

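A set of 10 genes that shape mitochondria were followed in WTC11 induced pluripotent stem cell-derived microglia-like cells (iMGLs). They were OPA1, MFN1, MFN2, DNM1L, FIS1, IMMT, CHCHD3, APOO, APOOL and YME1L1, found by gene name among the 62703 genes of the deposited count table, and 10 of 10 were present. The 12 libraries came from 3 WT clones, lettered J, K and L, and 3 with LACTB KO, lettered A, B and C, of the isogenic, CRISPR-edited WTC11 line, each clone differentiated separately in differentiation 1 and differentiation 2. Every library is named here by its clone letter and its differentiation number, so J1 is clone J in differentiation 1. In both genotypes the iMGLs were grown with IL34, TGFb and MCSF, received CX3CL1 and CD200 for the last days, and had no further treatment. Clones carry the edit, so they are the replicates of genotype (n = 3 per genotype), and the columns of the WT clones use the study's abbreviation for scrambled controls.

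Mitochondria are remodelled continuously by fusion and fission. The mitofusins MFN1 and MFN2 join outer membranes, OPA1 joins inner membranes and keeps cristae tight, and the inner-membrane protease YME1L1 cuts OPA1 into its short form. DNM1L, also called DRP1, is the dynamin-like GTPase that constricts mitochondria, and FIS1 is an outer-membrane protein linked to fission. The MICOS complex holds the necks of the cristae and contains IMMT (MIC60), CHCHD3 (MIC19), APOO (MIC26) and APOOL (MIC27). LACTB is a serine beta-lactamase-like protein that forms filaments in the intermembrane space, next to these membranes. Whether the transcripts of this machinery differ when LACTB is edited was the question for the genotype comparison.

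Start-site windows, running from 250 bases before to 50 bases after the RefSeq start (GRCh38.p14), were matched for 9 of the 10 genes, with YME1L1 the exception. Letters of 4 motifs were searched on both strands, and the motifs were chosen after the windows had been seen. CCGGAAG, the core bound by ETS-family factors, was found in the windows of MFN1, FIS1, IMMT and APOO and in 10.7% of 27305 promoters. CCAAT was found in those of OPA1, MFN1, DNM1L, IMMT and CHCHD3 and in 35.7% of all promoters. The palindrome of NRF1, a regulator of nuclear genes for mitochondria, was found only in that of OPA1 among the 9, and in 1.36% of all. TATAAA was in none of the 9 and in 12% of all. A match is a run of letters and does not show binding. The 3 stretches that follow lie just upstream of the RefSeq start and outside annotated exons. That of FIS1 lies within the longer GENCODE span of the gene (chr7:101239458-101252316, minus strand), so it is upstream of the RefSeq start only. They show what such matches look like in a mitofusin, a fission gene and a MICOS gene, with the matched letters in capitals (CCGGAAG or its reverse complement in MFN1 and FIS1, CCAAT in CHCHD3), each read 5′ to 3′ on the strand of the gene.
MFN1, chr3:179347509-179347708, plus strand: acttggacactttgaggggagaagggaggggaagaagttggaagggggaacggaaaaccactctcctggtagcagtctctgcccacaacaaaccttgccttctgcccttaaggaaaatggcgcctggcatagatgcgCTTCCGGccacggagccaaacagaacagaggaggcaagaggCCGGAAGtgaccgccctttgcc
FIS1, chr7:101245082-101245281, minus strand: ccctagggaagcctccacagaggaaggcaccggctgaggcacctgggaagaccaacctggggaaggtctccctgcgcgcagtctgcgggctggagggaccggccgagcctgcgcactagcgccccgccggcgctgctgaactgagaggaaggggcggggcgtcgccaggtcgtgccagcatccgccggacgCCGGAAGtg
CHCHD3, chr7:133082091-133082290, minus strand: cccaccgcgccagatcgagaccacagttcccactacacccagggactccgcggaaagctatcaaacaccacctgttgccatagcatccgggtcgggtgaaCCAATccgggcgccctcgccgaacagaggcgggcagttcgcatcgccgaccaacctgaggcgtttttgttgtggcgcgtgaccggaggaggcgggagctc

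LACTB itself was measured first, as a check of the labels. Its level in CPM (the count of a gene scaled by library size with TMM factors) was between 71.6 and 98.1 in the 6 WT libraries and between 7.49 and 9.78 in the 4 libraries of KO clones A and C. In KO clone B it was 44.4 and 51.6. Relative to the WT mean, clone A kept 12%, clone B 59.9% and clone C 9.62% of the transcript. The paper reports frameshifts or premature stop codons on both alleles of its KO clones. LACTB protein is not measured by these libraries, so transcript that was kept does not show protein that was kept. The clone levels did not overlap between genotypes, and the exact two-sided permutation test gave p = 0.1, the smallest value that 3 against 3 clones allow. Libraries held between 24153233 and 28406943 estimated counts. Of 15 microglia markers, 13 had at least 10 counts in every library, TMEM119 and SALL1 being the exceptions, and their summed level was between 6660 and 8300 CPM. Summed stromal markers (18 genes, led by collagens) reached 10800 CPM in J1 and 5550 CPM in K2, against 30.5 to 1200 CPM in the other 10 libraries. Fewer cells of a type and less RNA per cell cannot be told apart in bulk RNA.

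Per length, the 10 transcripts spanned a range from the middle to the top of the expressed genes. Levels were divided by the length of the canonical GENCODE transcript, and the mean over the 12 libraries was 47.9 CPM per kilobase for IMMT, 46.1 for YME1L1, 41.8 for FIS1, 35.2 for MFN2 and 34.2 for CHCHD3. On the same scale DNM1L was at 25.8, OPA1 at 16.0, MFN1 at 6.47, APOO at 4.81 and APOOL at 4.5 CPM per kilobase. Among all genes tested, IMMT stood at percentile 91.6 and APOOL at percentile 50.6. Ranges of mean ± SD overlapped between the neighbours IMMT and YME1L1, YME1L1 and FIS1, MFN2 and CHCHD3, and APOO and APOOL. FIS1 and MFN2 overlapped in this way in WT (42.1 ± 5.55 and 35.4 ± 2.89 CPM per kilobase, SD, n = 6 libraries) but not in LACTB KO (41.6 ± 4.09 and 35.0 ± 1.78). The steps from CHCHD3 to DNM1L, OPA1, MFN1 and APOO were each larger than these spreads in both genotypes. With the summed length of all annotated exons in place of the canonical transcript, MFN2 came after CHCHD3 (15.2 and 16.0 CPM per kilobase) and APOO after APOOL (2.29 and 4.5), and the rest of the order stayed.

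**Figure D1:**
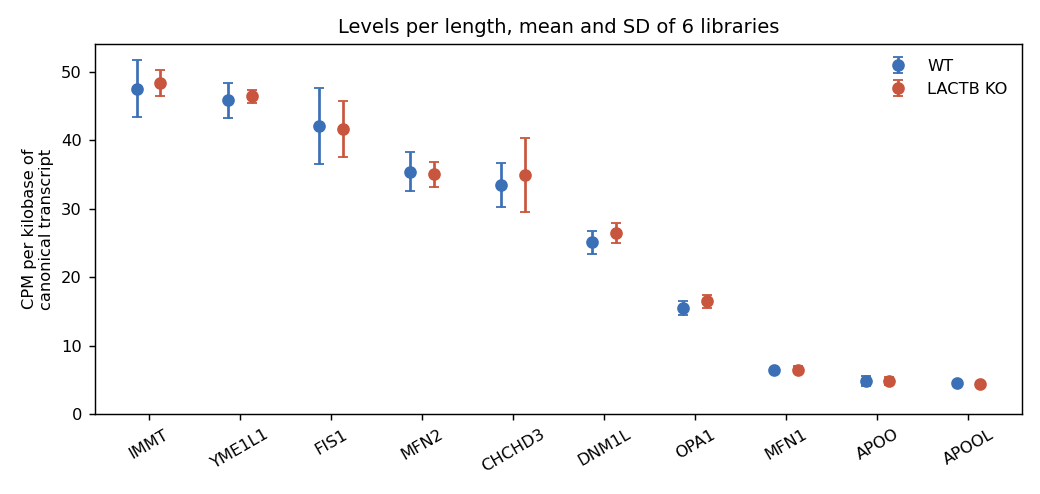
Levels of the 10 genes in CPM per kilobase of canonical transcript (vertical axis), with points for the mean and bars for the SD of 6 libraries per genotype (blue WT, red LACTB KO). IMMT, YME1L1 and FIS1 lie at the top and MFN1, APOO and APOOL at the bottom, and the bars of the genotypes overlap for every gene.

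Between genotypes, 0 of the 10 genes passed an adjusted p of 0.05 in edgeR's quasi-likelihood test on counts summed per clone, and 0.0% of the 17577 genes tested did. At an unadjusted p under 0.05 the count was again 0 of 10, against 6.36% of all genes tested. The fitted differences ran from -0.05 for APOOL to 0.09 for OPA1 on the log2 scale (LACTB KO against WT). There were 7 above 0 and 3 below, against 9090 of the 17577 genes tested above 0. The median was 0.02 against 0.01 over all genes, and the median size without sign was 0.03 against 0.12. For 9 of 10 genes the 95% interval lay within a 1.25-fold change in either direction. This was so for 30.2% of all genes tested and for 49.6% of the 10689 genes at or above the level of APOO. That reference starts at a mean of 5.40 CPM and is not matched to those 9 genes, which averaged 29.2 to 193 CPM. It was so for 58.2% of 67 other genes of mitochondrial shape, transport and biogenesis. The exception among the 10 was APOO, whose interval ran from 0.783-fold to 1.29-fold. Changes smaller than these intervals were not detectable with 3 clones per genotype. LACTB, the edited gene, did not pass the adjusted p in this quasi-likelihood test either. Its log2 fold change was -1.87 ± 0.67 (SE), with an unadjusted p of 0.0282 and an adjusted p of 0.735. Without KO clone B, which kept most LACTB transcript, the adjusted p of LACTB was 0.0157 in the same test. That clone was singled out by its LACTB level, so this p is not an independent test of the loss.

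**Figure D2:**
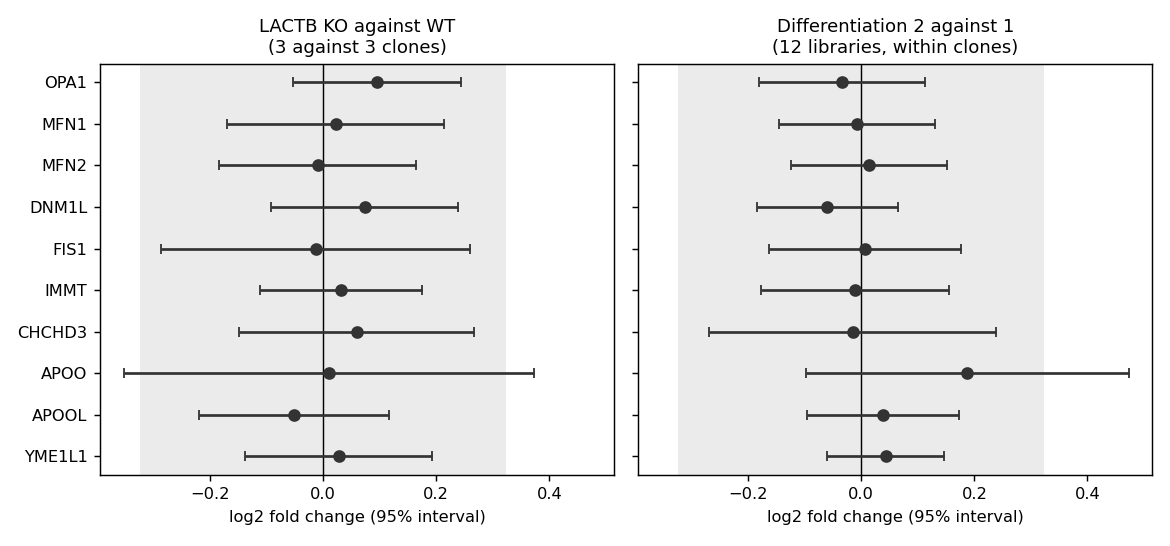
Log2 fold changes (points) with 95% intervals (bars) for LACTB KO against WT on 3 against 3 clones (left) and for differentiation 2 against 1 within clones (right), with changes under 1.25-fold shaded grey. Every interval includes 0, and the intervals of APOO, from -0.35 to 0.37 on the left and from -0.10 to 0.47 on the right, are the ones that leave the shaded band.

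OPA1 (ENSG00000198836.11, chr3:193593144-193697811, plus strand) had the largest fitted difference of the 10. Coordinates are those of GENCODE on GRCh38. In WT it ran from 87.1 CPM in J1 through a median of 101 to 104 CPM in K1, and in LACTB KO from 97.5 CPM in A2 through a median of 106 to 114 CPM in B1. Averaged per clone, OPA1 was at 94.5, 102.1 and 102.1 CPM in WT clones J, K and L and at 103.7, 108.3 and 105.9 CPM in KO clones A, B and C. These clone means did not overlap, which was the case for 1 of the 10 genes (OPA1) and for 10.7% of all genes tested, so the share among the 10 was near the background. The log2 fold change was 0.09 ± 0.06 (SE, 95% interval -0.05 to 0.24), with an adjusted p of 0.878 in edgeR's quasi-likelihood test. The separation came from differentiation 1, where J1, K1 and L1 were at 87.1, 104 and 101 CPM and A1, B1 and C1 at 109.9, 114 and 109 CPM. In differentiation 2 the WT libraries (102, 99.7 and 104 CPM) and the KO libraries (97.5, 102 and 103 CPM) overlapped. The fitted log2 fold change was 0.19 in differentiation 1 alone and -0.01 in differentiation 2 alone. It was 0.05 without WT clone J and 0.04 when J1 and K2, the libraries with the most stromal transcript, were left out.

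The mitofusins MFN1 (ENSG00000171109.19, chr3:179347709-179394936, plus strand) and MFN2 (ENSG00000116688.18, chr1:11980181-12015211, plus strand) had fitted differences near 0 between genotypes. MFN1 was at 30.0, 34.2 and 34.5 CPM (lowest, median and highest of 6 libraries) in WT and at 31.3, 32.9 and 38.5 CPM in LACTB KO, with a log2 fold change of 0.02 ± 0.08 (SE). MFN2 was at 147, 152 and 181 CPM in WT and at 144, 155 and 166 CPM in LACTB KO, with a log2 fold change of -0.01 ± 0.07. WT libraries of MFN1 were all at or above 33.5 CPM except J1, and the highest MFN2 value belonged to J2, from the same clone. Both KO libraries of clone B, the clone that kept most LACTB transcript, had the highest MFN1 of the 12 (38.5 and 35.6 CPM). MFN2 exceeded MFN1 in 12 of 12 libraries, with a ratio per canonical kilobase of 5.52 ± 0.492 in WT and 5.40 ± 0.272 in LACTB KO (SD, n = 6). The ranges of this ratio overlapped, from 5.03 to 6.29 and from 5.08 to 5.84. Its size depends on the length used, since it was 2.71 in WT with all annotated exons.

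The fission genes were DNM1L (ENSG00000087470.21, chr12:32679200-32745650, plus strand) and FIS1 (ENSG00000214253.9, chr7:101239458-101252316, minus strand). DNM1L was at 103, 114 and 122 CPM in WT and at 112, 118 and 128 CPM in LACTB KO. Its lowest values were those of WT clone J, J1 at 103 and J2 at 107 CPM, and the other 10 libraries lay between 112 and 128 CPM. The log2 fold change of DNM1L was 0.07 ± 0.07 (SE). The difference was above the clone SD pooled over both genotypes for DNM1L and OPA1, and below it for the other 8 genes. For DNM1L the clone SD was 0.0977 in WT and 0.0134 in LACTB KO on the log2 scale, so its difference was below the SD of the WT clones. DNM1L lies across YARS2 on the opposite strand (5949 counts in all libraries, against 37886 for DNM1L), and the named library kit does not mark strand, so reads of the overlap cannot be told apart. FIS1 was at 29.9, 36.8 and 43.3 CPM in WT and at 32.5, 35.2 and 42.9 CPM in LACTB KO, with a log2 fold change of -0.01 ± 0.11. The clones within each genotype stood further apart for FIS1 than the genotypes did. WT clones J, K and L were at 40.6, 37.9 and 31.5 CPM and KO clones A, B and C at 34.8, 39.8 and 33.9 CPM. The summed levels of OPA1, MFN1 and MFN2 over DNM1L, a ratio of fusion to fission GTPase transcripts per canonical kilobase, were 2.29 ± 0.213 in WT and 2.20 ± 0.0928 in LACTB KO (SD, n = 6), with overlapping ranges.

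Of the MICOS genes, IMMT (ENSG00000132305.22, chr2:86143932-86195472, minus strand) encodes the core subunit and CHCHD3 (ENSG00000106554.13, chr7:132784870-133082090, minus strand) its partner on the outer-membrane side. IMMT was at 111, 126 and 141 CPM in WT and at 122, 131 and 135 CPM in LACTB KO. The WT libraries held both the lowest and the highest IMMT value of the 12, J1 and J2, which are the same clone. CHCHD3 was at 47.8, 54.3 and 59.7 CPM in WT and at 43.5, 56.1 and 68.1 CPM in LACTB KO. Its log2 fold change of 0.06 ± 0.09 (SE) stood beside 0.03 ± 0.06 for IMMT. The KO range of CHCHD3, from C1 to A1, enclosed the whole WT range. An intron of CHCHD3 holds an annotated processed pseudogene on the same strand with 8057 counts in all, against 17818 for CHCHD3. The count of CHCHD3 was off a whole number by more than a small tolerance in 1 of 12 libraries.

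The paired apolipoprotein-like subunits APOO (ENSG00000184831.14, chrX:23833353-23907938, minus strand) and APOOL (ENSG00000155008.16, chrX:85003877-85093315, plus strand) were the lowest of the set per length. APOO was at 4.40, 5.61 and 6.17 CPM in WT and at 4.34, 5.49 and 6.27 CPM in LACTB KO, from 116 to 175 counts per library, and its log2 fold change of 0.01 had the widest error of the 10 (SE 0.15). APOOL was at 28.5, 29.8 and 31.1 CPM in WT and at 26.3, 28.6 and 30.6 CPM in LACTB KO, with a log2 fold change of -0.05 ± 0.07, the most negative of the set. The lowest APOOL values were B1 and B2 (26.3 and 27.4 CPM), both of the KO clone that kept most LACTB transcript. Without clone B the log2 fold change of APOOL was -0.01. The ratio of APOOL to APOO per canonical kilobase was 0.975 ± 0.16 in WT and 0.929 ± 0.15 in LACTB KO (SD, n = 6). With all annotated exons the WT ratio was 2.05, so which of the pair is higher depends on the length used.

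YME1L1 (ENSG00000136758.20, chr10:27110111-27155266, minus strand) was the steadiest transcript of the 10. It was at 182, 190 and 209 CPM in WT and at 188, 196 and 198 CPM in LACTB KO, so that the KO values lay inside the WT range. Its coefficient of variation (CV, SD over mean) across the 12 libraries was 4.02%, and its log2 fold change was 0.03 ± 0.07 (SE). That CV is percentile 0.58 among the genes at or above the level of APOO, a reference not matched to the level of YME1L1. In 11 of 12 libraries its count was off a whole number by more than a small tolerance, against 0 or 1 library for the other 9 genes. How the reads of YME1L1 were counted was not tested. YME1L1 lies across MASTL on the opposite strand (3648 counts in all libraries, against 63020 for YME1L1). As for DNM1L, reads of the overlap cannot be told apart. OPA1 over YME1L1, substrate over protease, had a ratio per canonical kilobase between 0.311 and 0.365 in WT and between 0.322 and 0.384 in LACTB KO.

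**Figure D3:**
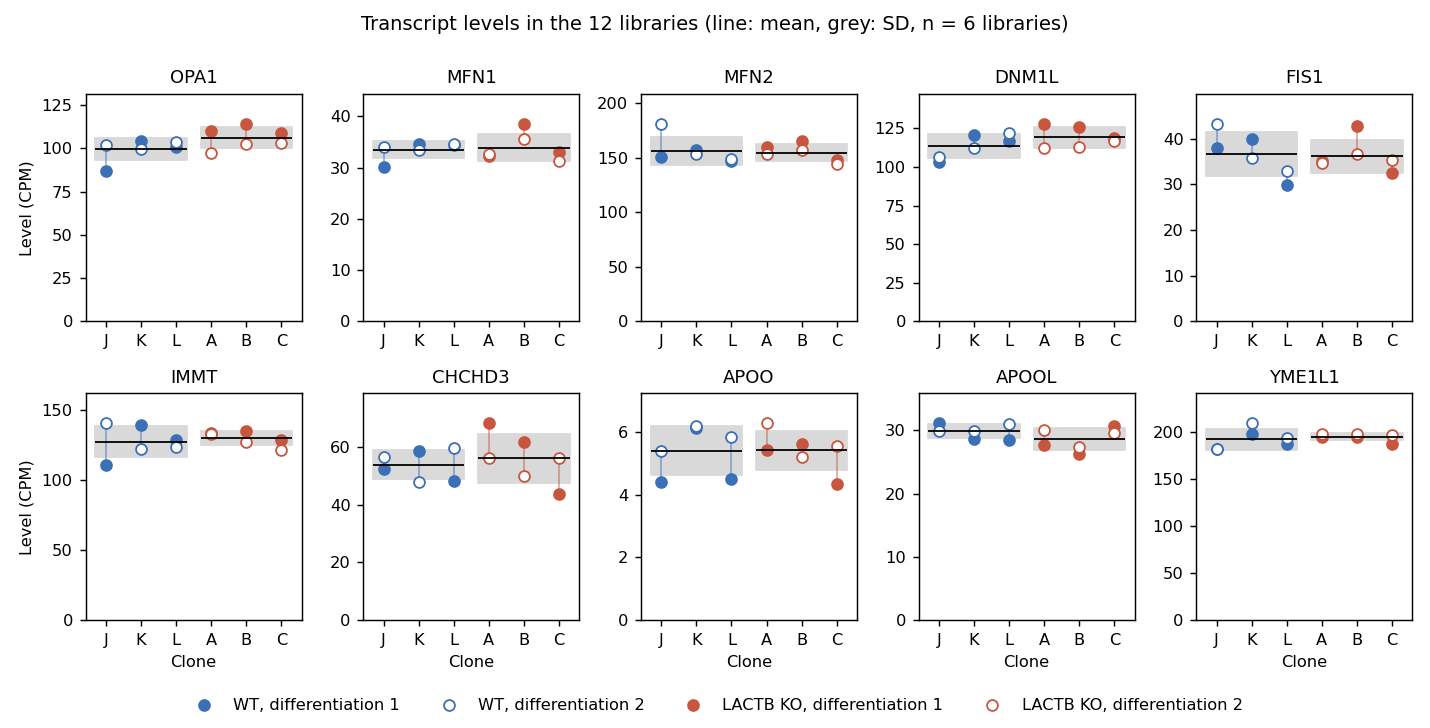
Level of each gene in CPM (vertical axis, from 0) in each of the 6 clones, with differentiation 1 as filled and differentiation 2 as open circles (blue WT, red LACTB KO), the genotype mean as a black line and the SD of 6 libraries in grey. The genotypes overlap in all 10 panels, and J1 is the lowest library for OPA1, MFN1, DNM1L, IMMT and YME1L1.

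The set varied little between libraries. The median CV over the 12 libraries was 6.51% for the 10 genes, against 19% for all genes tested and 12% for the 10689 genes at or above the level of APOO. The median SD of clone levels within a genotype was 0.0743 on the log2 scale, against 0.187 and 0.121. The narrower reference starts at APOO (mean 5.40 CPM), while the rest of the set averaged from 29.2 CPM (APOOL) to 193 CPM (YME1L1). No reference matched in level to those genes was made. CHCHD3 and APOO varied most (CV 12.5% and 12.6%), followed by FIS1 (11.1%), and the other 7 genes had a CV between 4.02% and 6.61%. The KO clones with the strongest loss of LACTB transcript gave the same picture. With clones A and C alone against WT, the log2 fold change of LACTB was -3.20, while the members ran from -0.08 (FIS1) to 0.08 (OPA1).

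Between differentiations, each clone was compared with itself. By the adjusted p 0 of the 10 genes passed and 0.0% of 15530 genes tested did, and by an unadjusted p under 0.05 again 0 of 10, against 9.95% of all genes. The median log2 change of the set was 0.00 and its median size without sign was 0.02, against 0.11 for all genes. APOO had the largest value, 0.19 ± 0.12 (SE, 95% interval -0.10 to 0.47, adjusted p of 0.681 in edgeR's quasi-likelihood test), and was higher in differentiation 2 in 5 of 6 clones. YME1L1 was higher in 6 of 6 clones, but by only 0.04 ± 0.05. CHCHD3 had the widest range of changes within clones, in opposite directions. Its log2 change was 0.11 in J, 0.31 in L and 0.36 in C but -0.29 in K, -0.28 in A and -0.30 in B, so that its average was -0.02 ± 0.11. FIS1 was likewise higher in J, L and C (0.19, 0.14 and 0.12) and lower in K, A and B (-0.17, -0.02 and -0.23). In both genes the clones of each genotype lay on both sides of 0.

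**Figure D4:**
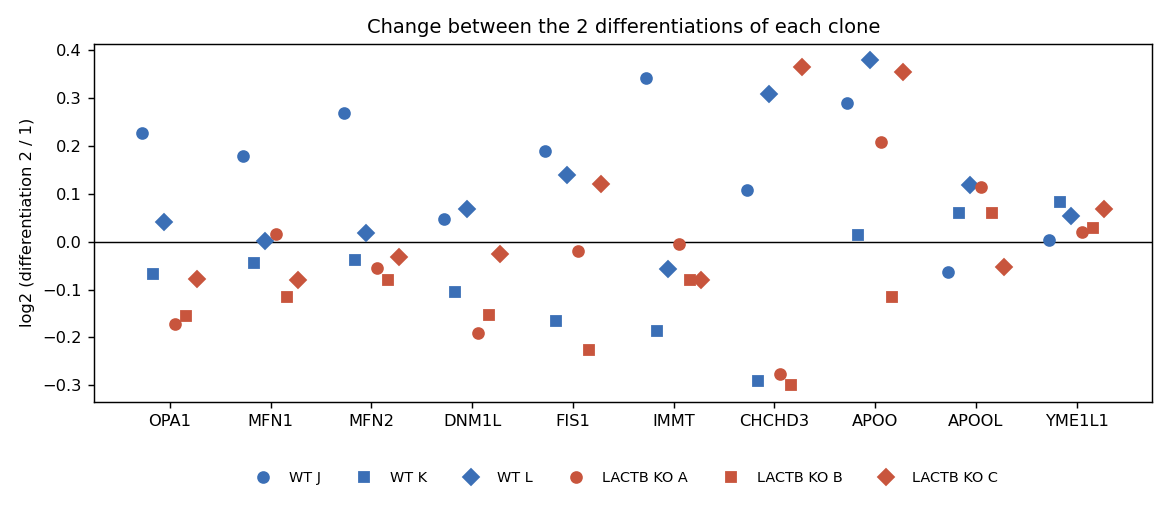
Log2 ratio of differentiation 2 to differentiation 1 (vertical axis) for each gene in each clone, with a symbol per clone (blue WT, red LACTB KO). CHCHD3 falls in a higher group (J, L and C) and a lower group (K, A and B), while YME1L1 stays between 0.00 and 0.08.

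Whether the change between differentiations differed by genotype was tested with an interaction term. By the adjusted p 0 of 10 genes and 0.0% of the 15530 genes passed, and by an unadjusted p under 0.05 again 0 of 10, against 0.908% of all genes. Within WT the fitted change was above 0 for 10 of 10 genes (median 0.05) and for 7859 of the 15530 genes tested, but in WT clone K alone it was below 0 for 7 of 10, from -0.04 for MFN2 to -0.29 for CHCHD3. Within LACTB KO the fitted change was below 0 for 7 of 10 (median -0.06) and for 7926 of the 15530 genes tested. The median interaction was -0.10 for the 10 genes and -0.10 for 67 other genes of mitochondrial shape, transport and biogenesis (47 below 0). Over all genes the median was 0.00, with 7822 of 15530 below 0. Leaving out 1 clone moved the median of the 10 to between -0.18 (without K) and -0.04 (without B). OPA1 had the largest term, -0.20 ± 0.12 (SE), with an adjusted p of 0.999 in edgeR's quasi-likelihood test. Its change was below 0 in 3 of 3 KO clones (-0.17, -0.16 and -0.08 in A, B and C) and in WT was 0.23, -0.07 and 0.04 in J, K and L. Without clone J the OPA1 term was -0.12.

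Libraries J1 and C1 were each below the mean of the other libraries of their genotype for 8 of 10 genes. J1 was the lowest of the 12 for 5 genes (OPA1, MFN1, DNM1L, IMMT and YME1L1), and FIS1 and APOOL were not below that mean. Its median log2 deviation from the other WT libraries was -0.13, while the other 11 libraries had medians between -0.06 and 0.11. The deviation was -0.35 for APOO, -0.24 for IMMT, -0.23 for OPA1 and -0.19 for MFN1. J1 also had the highest stromal sum (10800 CPM) and the lowest sum of 6 proliferation markers (324 CPM, against 441 to 650 CPM elsewhere). K2, with the next highest stromal sum (5550 CPM), was below the mean of the other WT libraries for 7 of 10 genes but with a median deviation of -0.01, and it was the highest of the 12 for YME1L1. C1, with a stromal sum of 50 CPM, was the lowest of the 12 for CHCHD3 and APOO, with deviations of -0.42 and -0.37 from the other KO libraries and a median deviation of -0.05. The genes that were lowest of the 12 in C1 were not those that were lowest in J1. The part of stromal cells in the J1 values was not tested. Without J1 and K2 the genotype fit still gave 0 of 10 genes at an unadjusted p under 0.05, with 3 of 10 fitted above 0 in place of 7.

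**Figure D5:**
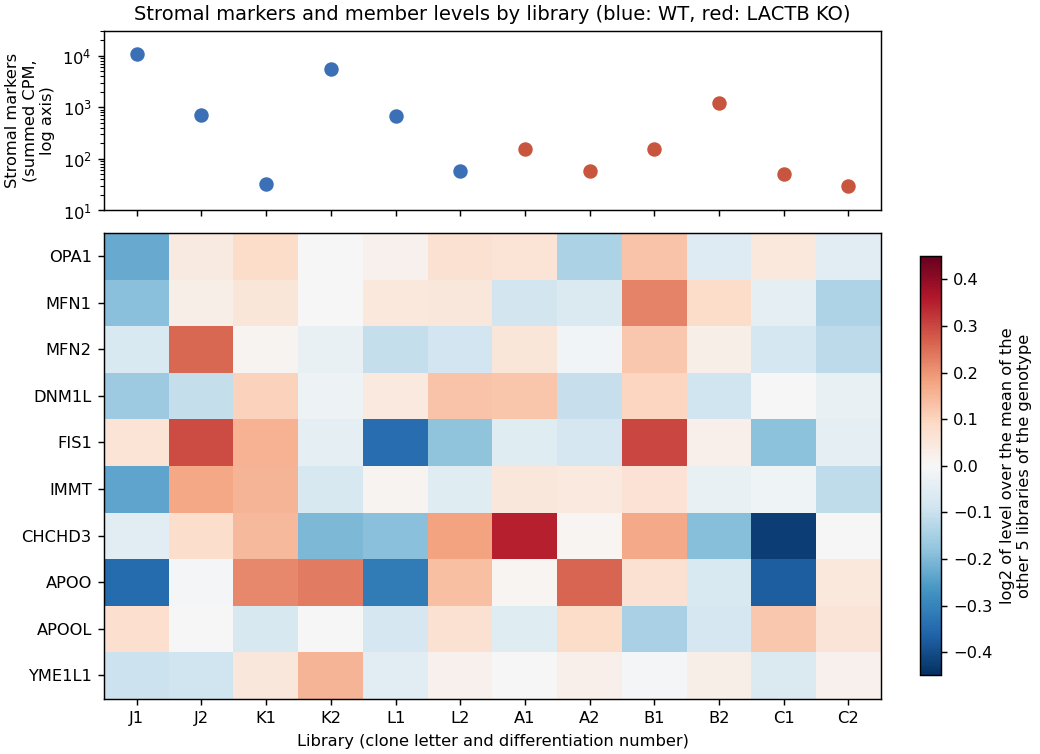
Summed CPM of 18 stromal markers (top, log axis) and log2 deviation of each gene from the mean of the other 5 libraries of its genotype (bottom, blue lower and red higher) for each of the 12 libraries. J1 has the most stromal transcript and a median deviation of -0.13, and K2, next in stromal transcript, has one of -0.01.

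Around the 10 genes, 67 others of mitochondrial shape, lipid supply, transport and biogenesis were looked at in 8 lists, and 67 of 67 were tested. Between genotypes 0 passed the adjusted p, and 1 had an unadjusted p under 0.05 (1.49%, against 6.36% of all genes). That gene was POLRMT, the mitochondrial RNA polymerase, whose WT libraries averaged 50.2 ± 3.94 CPM and whose KO libraries averaged 57.4 ± 4.90 CPM (SD, n = 6), with an adjusted p of 0.726 in edgeR's quasi-likelihood test. Fitted values were above 0 for 45 and below 0 for 22, with a median log2 fold change of 0.05. Over all genes, 9090 of the 17577 tested were above 0, with a median of 0.01. MICOS and sorting-and-assembly partners were above 0 in 6 of 9, and the outer-membrane barrel protein SAMM50 was at 0.19 ± 0.10 (SE). Among inner-membrane proteases and scaffolds 7 of 9 were above 0, with ATAD3A at 0.23 ± 0.10 and the prohibitin PHB2 at 0.14 ± 0.07. Genes of cardiolipin synthesis and remodelling were above 0 in 5 of 7, and the lipid-transfer pair PRELID1 and TRIAP1 was at 0.17 ± 0.13 and 0.10 ± 0.06.

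Apart from POLRMT, 0 genes of the remaining 5 lists had an unadjusted p under 0.05. The 3 ATP synthase dimer subunits were fitted at 0.02 to 0.07, with ATP5ME at 0.07 ± 0.19 (SE) and ATP5MK at 0.06 ± 0.17 on the log2 scale. Fission receptors and regulators were above 0 in 10 of 15, from SPIRE1, an actin nucleator, at -0.26 ± 0.13 to MTFR2 at 0.42 ± 0.20. Of the fusion regulators and outer-membrane ligases 5 of 8 were below 0, with the deubiquitinase USP30 at -0.19 ± 0.09. USP30 ran from 11.3 to 13.2 CPM in WT and from 9.65 to 11.4 CPM in LACTB KO. Transport genes were above 0 in 4 of 6, with SNPH, which anchors mitochondria, at -0.21 ± 0.15 and the adaptor GTPase RHOT2 at 0.06 ± 0.07. Biogenesis regulators were above 0 in 7 of 10, and the transcription factor TFB2M was at 0.23 ± 0.11.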

How the data were processed

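RNA from 12 iMGL cultures (3 WT and 3 LACTB KO clones, 2 differentiations each) was sequenced as paired reads from an unstranded poly(A) kit. Reads were trimmed and aligned by STAR (hg38). The authors deposited 1 table of estimated counts, 1 value per gene and library, with no scaling; the counting tool is not given in the sources used here. Of the values in a library, 10.8% to 11.5% were fractions, so counts were rounded. Of 62703 gene IDs, 62686 matched GENCODE 44. The members and lists were chosen with earlier results of these data known. Named genes were the members, LACTB and, per list, the 2 genes with the smallest p between genotypes, of which 1 is not reported here.

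Genotype was tested on the 2 differentiations summed per clone, and differentiation and its interaction with genotype on 12 libraries with clone as a fixed effect. These used edgeR 4.0.16 in R 4.3.3 (TMM, filterByExpr, quasi-likelihood F test, Benjamini-Hochberg over all genes tested). In a check on simulated data, part of the changed genes were missed. CPM values use the TMM factors. The planned mixed model of the study's methods was replaced by this fit, with limma 3.58.1 (voom, clone as random effect) and DESeq2 1.42.0 as alternatives. The 2 libraries of a clone come from the same edited line, and clones from 1 parental line. The p-values for genotype therefore measure the spread between clones of WTC11. Those for differentiation and interaction rest on how the change between the 2 differentiations varied from clone to clone. The labels give a differentiation number, which the differentiation fits treat as a batch shared by the clones. Deviations of libraries from their genotype mean correlated by 0.0363 on average for 18 pairs across genotypes with the same number and by -0.0357 for 18 pairs with the other number.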

Additional observations from a re-analysis of the deposited data

Results flagged for a closer look

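The gap of 1 library to its neighbour was taken as a share of the range of its group on the log2 scale. This share was over Dixon's 95% critical value in 4 of 20 groups of 6 libraries (10 genes in each genotype). A chance rate of about 1 group in 20 would need independent libraries and groups. Here libraries share clones and the 10 genes share libraries, so that rate is no background for the count. No such count was made over all genes tested, so an excess over chance cannot be read from it. In WT, OPA1 was at 87.1 CPM in J1, with a gap of 0.745 of the range, and MFN1 was at 30.0 CPM in J1, with a gap of 0.781. J1 is also the library with the highest stromal markers (10800 CPM summed), whose part in these values was not tested. MFN2 in WT was highest in J2 at 181 CPM, with a gap of 0.663. YME1L1 in LACTB KO was lowest in C1 at 188 CPM, with a gap of 0.632, although all 6 KO values lay within the WT range.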

How the results depend on the processing

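Under 18 alternatives for genotype, and 11 each for differentiation and interaction, the number of the 10 genes with an adjusted or an unadjusted p under 0.05 was 0. With differentiation as replicate block on 12 libraries the median log2 fold change for genotype was 0.0188 and 0 genes were called, and it changed no call. A block of arbitrary clone pairs (J and A, K and B, L and C) gave 0.0248. The sign of small differences was not stable, and the cause was not tested. For genotype, the log2 fold change became 0.00409 for MFN2 and 0.00108 for FIS1 without the expression filter. In differentiation 1 alone it was 0.0559 for MFN2 and 0.0311 for FIS1. In differentiation 2 alone it was -0.0127 for OPA1, -0.0388 for MFN1, -0.0183 for IMMT, -0.0165 for CHCHD3 and -0.0338 for APOO. With the stromal level as covariate it was 0.0976 for MFN2, 0.195 for FIS1 and -0.00377 for APOO. Without the stromal-rich libraries J1 and K2, an alternative chosen after seeing the data, it was -0.017 for MFN1, -0.0573 for IMMT, -0.00968 for CHCHD3 and -0.0333 for APOO. Leaving out each clone in turn gave -0.0438 to 0.0612 for MFN1, -0.0473 to 0.0323 for MFN2, -0.111 to 0.0589 for FIS1, -0.0166 to 0.139 for CHCHD3, -0.063 to 0.12 for APOO and -0.018 to 0.0774 for YME1L1. For differentiation, library totals alone gave -0.0241 for MFN2 and -0.0313 for FIS1, and no expression filter gave 0.00472 for MFN1 and 0.000448 for IMMT. Leaving out each clone gave -0.0765 to 0.00369 for OPA1, -0.0344 to 0.00954 for MFN1, -0.0277 to 0.0377 for MFN2, -0.0207 to 0.0484 for FIS1, -0.0719 to 0.0208 for IMMT and -0.0901 to 0.0477 for CHCHD3. The median interaction of the 10 genes ran from -0.177 to -0.0415 on leaving out each clone. APOO, with 116 to 175 counts per library, limits what can be seen of that gene.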

Other observations

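Among the 67 surrounding genes, 9 had an unadjusted p under 0.05 between differentiations (13.4%, against 9.95% of all genes tested), and 0 passed the adjusted p in edgeR's quasi-likelihood test. The genes named here were chosen after their values were seen. INF2, a formin that assembles actin on the endoplasmic reticulum where mitochondria divide, had the smallest p (9.27e-05, adjusted p of 0.096). It was at 63.2, 89.0 and 98.9 CPM (lowest, median and highest of 6 libraries) in differentiation 1 and at 51.2, 57.1 and 67.0 CPM in differentiation 2, and was lower in differentiation 2 in 6 of 6 clones, with a log2 change of -0.57 ± 0.08 (SE). TAFAZZIN, which remodels cardiolipin, was at a median of 25.5 CPM in differentiation 1 and 20.5 CPM in differentiation 2, and was also lower in 6 of 6 clones (-0.27 ± 0.08). The transport GTPase RHOT2 and the fusion regulator MIGA2 were lower in 6 of 6 clones (-0.18 ± 0.06 and -0.22 ± 0.07). OMA1, the stress-activated protease that also cuts OPA1, was higher in differentiation 2 in 6 of 6 clones, at a median of 6.73 CPM in differentiation 1 and 8.76 CPM in differentiation 2 (0.32 ± 0.12). YME1L1, the other OPA1 protease, changed by 0.04 ± 0.05 in the same fit. The other 4 genes were TRIAP1, higher in 5 of 6 clones, and ATAD3A, ESRRA and POLRMT, each lower in 5 of 6.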
